A study of Mus musculus with 34 samples.

Results

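The interleukin-1 (IL-1) and interleukin-18 (IL-18) family was described in the kidneys of *Pkd2*-KO mice through 10 genes, out of 23509 in the count tables. They were the ligand genes *Il1a*, *Il1b*, *Il18* and *Il33*, the signalling receptor genes *Il1r1*, *Il18r1* and *Il1rl1*, and the inhibitor genes *Il1rn*, *Il1r2* and *Il18bp*. All 10 members were found and all 10 passed the filter on low counts that left 15644 genes for testing. The list was chosen by levels in PBS-treated and untreated kidneys, in whose comparison *Il18r1* had the smallest p-value of all tested genes. The comparison of PBS with UNT is therefore given for the members as a description, and nothing is read from how many of them passed in it.

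Polyadenylated RNA of whole kidneys was sequenced from 34 C57BL6 mice at postnatal day (P) 28, each mouse giving 1 library. *Pkd2*-KO mice received RGLS4326, an oligonucleotide that blocks the microRNA miR-17, at 20 mg per kg (RGLS4326 group, n = 11) or PBS (PBS group, n = 11), in both cases under the skin at P10, P11, P12 and P19. Age-matched non-transgenic mice that received neither formed the UNT group (n = 12). In the *Pkd2*-KO model both *Pkd2* alleles are floxed and Cre is driven by the *Pkhd1* promoter, which is active in kidney tubules and strongest in collecting ducts, so the gene is lost from tubule cells and not from the whole kidney. The sample titles spell the genotype as Pdk2KO. *Pkd2* averaged 274.0 CPM (counts scaled to library size) in UNT kidneys, 160.1 in PBS and 209.8 in RGLS4326 kidneys, and UNT and PBS did not overlap (219.6 to 337.7 against 98.0 to 214.5).

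The ligands of this family are alarm cytokines. IL-1α, IL-1β and IL-33 bind receptors that share the accessory chain IL-1RAP, whereas IL-18 binds the receptor chain encoded by *Il18r1* together with the chain encoded by *Il18rap*, and all of them signal through the adaptor MyD88 to NF-κB. IL-1β and IL-18 are made as inactive precursors and are cut by caspase-1 in the inflammasome. Signalling is restrained by a receptor antagonist (*Il1rn*), a decoy receptor (*Il1r2*) and an IL-18 binding protein (*Il18bp*). In the kidney these cytokines are known for their part in tubular injury and in the recruitment of leukocytes.

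Some receptor genes of the family, though not *Il1rap* or *Sigirr*, lie in a row on mouse chromosome 1, all on the plus strand. On GRCm38 they were, in order, *Il1r2* (chr1:40074079-40125231), *Il1r1* (chr1:40225080-40317257), *Il1rl2*, *Il1rl1* (chr1:40429570-40465415), *Il18r1* (chr1:40465552-40500854) and *Il18rap* (chr1:40515362-40551705). Only 136 bases separate the end of *Il1rl1* from the start of *Il18r1*. This stretch (chr1:40465416-40465551, plus strand, from RefSeq promoter windows) is shown because the genes on either side of it had very different levels in cystic kidneys:

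Il1rl1 to Il18r1: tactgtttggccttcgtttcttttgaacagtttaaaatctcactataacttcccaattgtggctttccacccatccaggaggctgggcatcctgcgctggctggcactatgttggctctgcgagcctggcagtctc

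The stretch before the first start of *Il1rn*, the member with the largest fold difference from UNT kidneys, is chr2:24336610-24336852 (plus strand, 243 bases, none in an annotated exon). Its capitals mark the single match to the AP-1 motif TGANTCA:

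Il1rn upstream: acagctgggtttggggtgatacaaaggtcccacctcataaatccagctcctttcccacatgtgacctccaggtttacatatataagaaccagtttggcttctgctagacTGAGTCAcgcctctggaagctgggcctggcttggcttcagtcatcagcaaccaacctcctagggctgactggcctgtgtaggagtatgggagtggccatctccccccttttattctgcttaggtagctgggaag

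Motifs were searched on both strands in the 250 bases before each RefSeq start, and the 10 members had 17 such windows. The AP-1 motif was found in the windows of *Il1rn* and *Il1a*, and in 6.7% of all windows of mouse genes. The STAT motif TTCNNNGAA was found in windows of *Il18r1* and *Il1r2* (7.0% of all windows), and the κB consensus in 1 window of *Il1r1* (3.9%). No 2 of these matches overlapped. A match is a match of letters and not a binding site.

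RGLS4326 is directed at miR-17, so the longest annotated 3′UTR of each member was searched for 7-base or 8-base matches to its seed. The seed, bases 2 to 8, is in capitals:

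mmu-miR-17-5p: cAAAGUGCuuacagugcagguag

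The same seed is carried by mmu-miR-20a-5p, mmu-miR-20b-5p, mmu-miR-93-5p, mmu-miR-106a-5p and mmu-miR-106b-5p. A match was held by 3 members, *Il1r1* (chr1:40313935-40313941), *Il1rn* (chr2:24350179-24350185) and *Il1rl1* (chr1:40463256-40463262), all on the plus strand. They are given with 9 bases on either side and the match in capitals:

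Il1r1: ttctgcagtCACTTTAgctttctgc
Il1rn: ctcagggggGCACTTTtaaggatct
Il1rl1: atacttcctCACTTTAaaagtaatg

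The matches in *Il1r1* and *Il1rl1* were of the 7mer-A1 kind and that in *Il1rn* was of the 7mer-m8 kind. The other 7 members, *Il18r1* among them, held none in this UTR, and 21.2% of 14193 genes with a 3′UTR held at least 1.

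Compared with UNT kidneys, 9 of 10 members were higher in PBS kidneys at an adjusted p under 0.05, where 43.1% of all tested genes were higher, and in 8 of 10 every PBS mouse was above every UNT mouse (22.7% of tested genes). These counts restate the values that chose the list and are no result about it. RGLS4326 kidneys did not enter that comparison, but they are *Pkd2*-KO kidneys too and are set against the same UNT mice. The members were also chosen with earlier results of these data known, so their counts here are no independent support. In RGLS4326 kidneys 9 of 10 members were again higher than in UNT, against 40.8% of tested genes (edgeR quasi-likelihood test, largest adjusted p of the 9 = 5.87e-06). For 8 of 10 they did not overlap UNT (20.7% of tested genes). The median log2 fold change of the members was 3.05 for PBS vs UNT and 2.94 for RGLS4326 vs UNT, beside 0.04 and 0.02 over all tested genes. *Il18bp* was the exception in both. Libraries of the groups differed as well. Reads in no gene were 9.84% to 11.3% in UNT, above all PBS libraries (5.18% to 8.995%), and reads without a unique alignment were 22.8% to 25.7% in UNT, above PBS (14.8% to 19.4%) and RGLS4326 libraries (14.8% to 19.1%). With either share in the fit, the same 9 members were higher in RGLS4326 than in UNT, although the second share and the groups cannot be told apart. Fewer cells of a type and less RNA per cell cannot be told apart in RNA of whole kidneys.

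**Figure D1:**
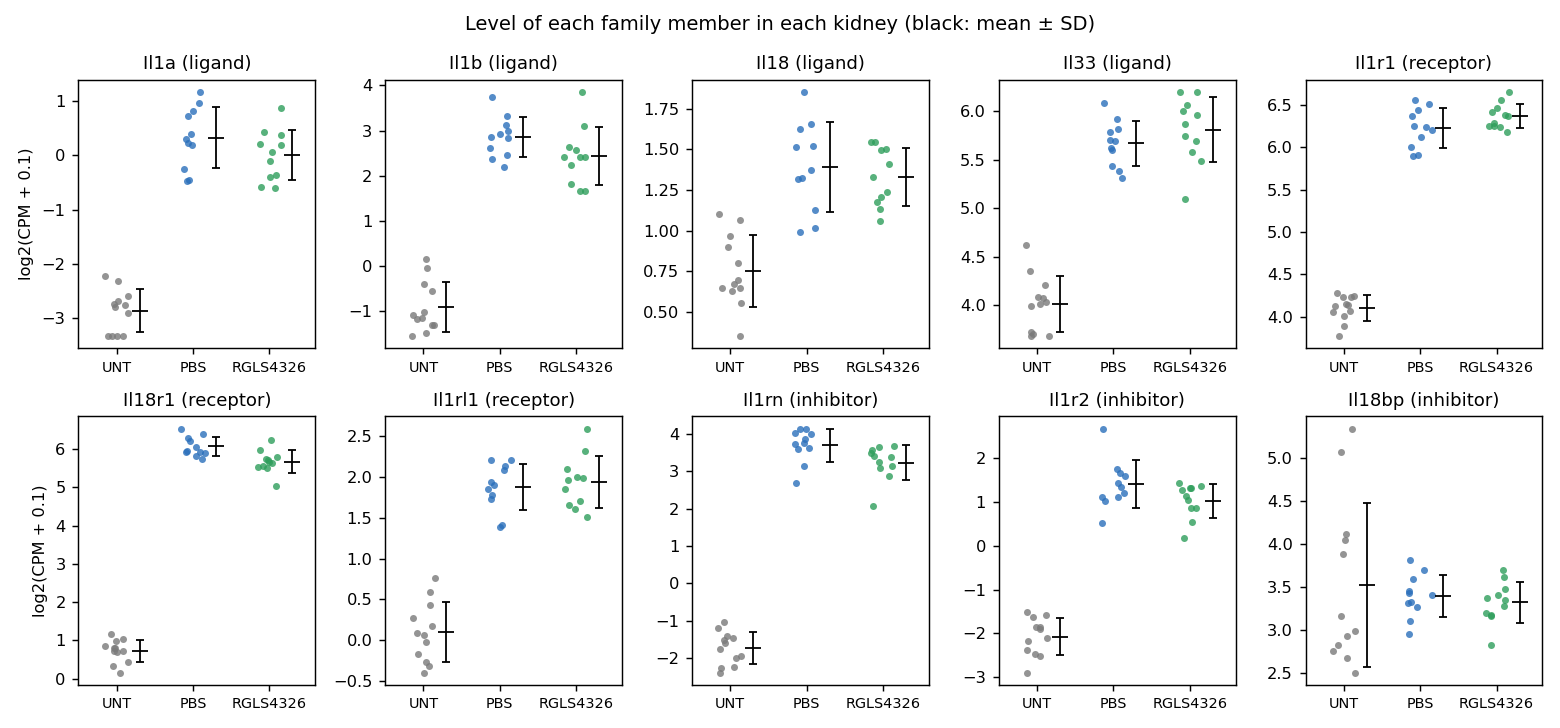
Level of each member in each of the 34 kidneys, as log2(CPM + 0.1), by group (UNT, PBS, RGLS4326). Points are mice and black marks are the mean ± SD. Every member except *Il18bp* and *Il18* separated both *Pkd2*-KO groups from UNT without overlap, while PBS and RGLS4326 overlapped for all 10.

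RGLS4326 and PBS kidneys differed far less from each other. Of the 10 members, *Il18r1* and *Il1rn* were lower after RGLS4326 and none was higher, where 33.8% of all tested genes passed the test in either direction and 18.5% were lower. The members' share was thus near that of all genes. The groups overlapped for all 10 members, as for nearly all genes (0.0639% of tested genes did not overlap). The median log2 fold change of the members was −0.21, beside 0.00 over all genes. This comparison shares the PBS mice with the one that chose the list.

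**Figure D2:**
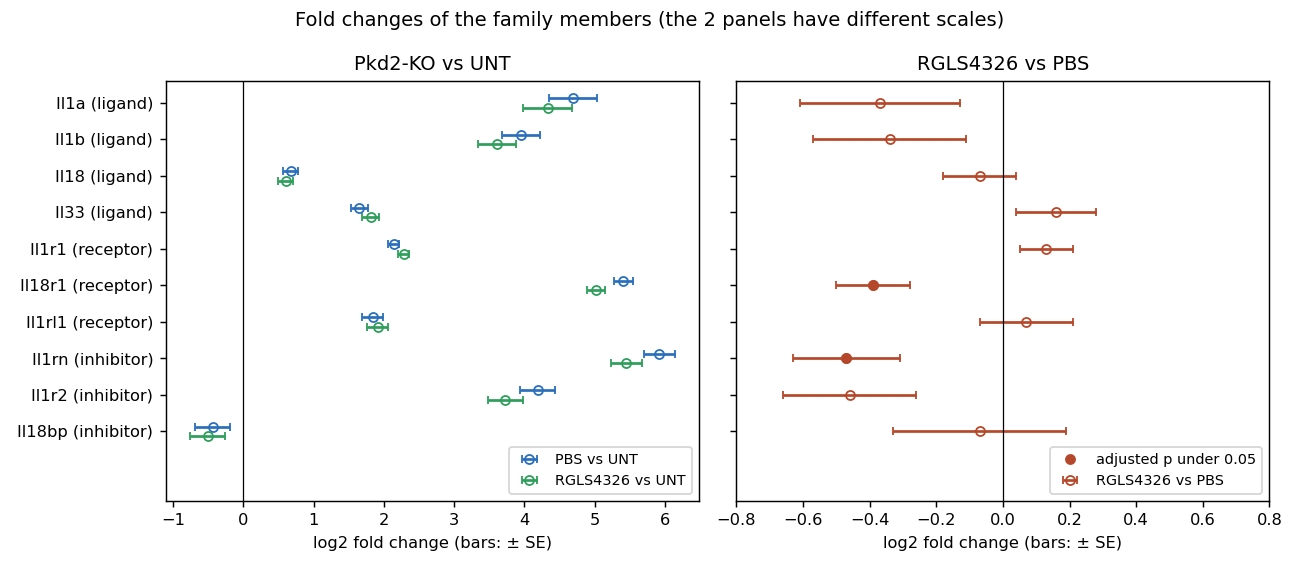
Log2 fold changes of the members with their SE, for PBS vs UNT and RGLS4326 vs UNT (left) and for RGLS4326 vs PBS (right, on a narrower scale). Filled points on the right mark *Il18r1* and *Il1rn*, the members with an adjusted p under 0.05, and the points on the left lie between −0.51 and 5.92.

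Among the ligands, *Il1b*, the secreted inflammatory form of IL-1, had a lowest, median and highest CPM of 0.241, 0.361 and 1.02 in UNT, 4.50, 7.10 and 13.3 in PBS and 3.04, 5.23 and 14.4 in RGLS4326 kidneys. All *Pkd2*-KO mice were above all UNT mice. PBS kidneys were 15.5-fold above UNT (log2 fold change 3.95, SE 0.27) and RGLS4326 kidneys 12.2-fold (3.61, SE 0.27, adjusted p = 1.41e-14). RGLS4326 vs PBS gave −0.34 (SE 0.23, adjusted p = 0.242), with 9 of 11 treated mice below the PBS mean. The RGLS4326 mouse number 7 was the highest of all 34 mice, and without it the log2 fold change was −0.57 (adjusted p = 0.0399). In the exons of *Il1b*, 1.3% of bases overlap *Il1bos* on the opposite strand.

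*Il1a* encodes the form of IL-1 that is released from dying cells. It had the fewest reads of the members, with 19 counts in the 12 UNT libraries together, 4 of them at 0, against 497 counts in PBS and 301 in RGLS4326 libraries. Its CPM ran from 0 to 0.114 (median 0.0460) in UNT, from 0.617 to 2.15 (1.13) in PBS and from 0.559 to 1.73 (0.940) in RGLS4326 kidneys. The fold over UNT therefore rests on few UNT reads, at a log2 fold change of 4.69 (SE 0.34) for PBS and 4.33 (SE 0.35) for RGLS4326, and RGLS4326 vs PBS gave −0.37 (SE 0.24, adjusted p = 0.224). Reads of *Il1a* are also uncertain because 11.2% of its exon bases overlap *Gm14023* on the opposite strand and the strand setting of the counting was not given.

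*Il33*, a nuclear alarm cytokine of epithelial and stromal cells, had the highest mean per kilobase of exon of the 10 members in every group. It ranged from 12.8 to 24.5 CPM (median 16.1) in UNT, from 39.8 to 67.7 (51.9) in PBS and from 34.02 to 73.5 (58.4) in RGLS4326 kidneys. That was 3.14-fold over UNT with PBS and 3.50-fold with RGLS4326 (adjusted p = 4.24e-16). RGLS4326 vs PBS was 0.16 on the log2 scale (SE 0.12, adjusted p = 0.294), with 8 of 11 treated mice above the PBS mean.

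*Il18* itself differed least among the ligands. Its CPM was 1.18 to 2.04 (median 1.51) in UNT, 1.89 to 3.51 (2.49) in PBS and 1.99 to 2.82 (2.42) in RGLS4326 kidneys, so that UNT and PBS overlapped. PBS was 1.59-fold and RGLS4326 1.51-fold above UNT (adjusted p = 5.87e-06 for the latter), and the treated groups differed by −0.07 on the log2 scale (SE 0.11, adjusted p = 0.618). The receptor gene of IL-18 thus stood 42.5-fold above UNT in the same PBS kidneys in which the ligand gene stood 1.59-fold above it.

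That receptor gene, *Il18r1*, had 1.02, 1.59 and 2.16 CPM as its lowest, median and highest value in UNT kidneys. In PBS kidneys the values were 53.1, 61.1 and 92.3, and in RGLS4326 kidneys 32.8, 50.9 and 75.4. The lowest cystic kidney was thus well above the highest UNT kidney. The log2 fold change was 5.41 (SE 0.13) for PBS and 5.02 (SE 0.13, adjusted p = 2.4e-26) for RGLS4326, both over UNT, and its p for RGLS4326 vs UNT ranked 1 of 15644 genes, with the UNT mice that also served to choose it. After RGLS4326 *Il18r1* was lower than after PBS, at −0.39 on the log2 scale (SE 0.11, adjusted p = 0.00966), or 0.765-fold. Of the 11 treated mice, 10 were below the PBS mean and 7 were below the lowest PBS mouse, while number 8 reached 75.4 CPM. The difference in mean CPM between the treated groups was 24.1% of the PBS excess over UNT. In this comparison the p of *Il18r1* ranked 1706.

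Names of the libraries run through 3 numbering series, which is the only sign of a batch in the sources used here. The mean log2(CPM + 1) of *Il18r1* in RGLS4326 minus PBS was −0.76, −0.23 and −0.21 in the 3 series, each of 3 or 4 mice a group, and no series passed the test alone (adjusted p from 0.0752 to 0.53). The share of reads that fell in no gene was 5.18% to 8.995% in PBS and 4.94% to 12.0% in RGLS4326 libraries. A fit that included this share gave *Il18r1* −0.34 (adjusted p = 0.138) and called 89 genes in all instead of 5280. Of 6 genes of the distal tubule and collecting duct, *Aqp2*, *Fxyd4* and *Hsd11b2* were lower after RGLS4326 (log2 fold changes −0.78, −0.59 and −0.52), *Slc12a3* and *Calb1* of the distal tubule were higher (0.62 and 0.32), and *Aqp3* gave −0.38 (adjusted p = 0.175). Their part in the result was not tested.

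*Il1r1*, the signalling receptor of IL-1, was already measured at 13.6 to 19.3 CPM (median 17.4) in UNT kidneys. PBS kidneys had 59.2 to 94.4 CPM (75.6) and RGLS4326 kidneys 72.4 to 100.5 (82.3), 4.42-fold and 4.84-fold over UNT without overlap (adjusted p = 5.01e-24 for the latter). RGLS4326 vs PBS gave 0.13 (SE 0.08, adjusted p = 0.168). It was the one member higher with RGLS4326 in all 3 numbering series (0.08, 0.23 and 0.14), and 9 of 11 treated mice were above the PBS mean. In the fit that included the share of reads outside genes its log2 fold change was 0.006.

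*Il1rl1* encodes the IL-33 receptor ST2, in a membrane and a soluble form that gene counts do not separate. It had 0.660 to 1.59 CPM (median 0.956) in UNT, 2.52 to 4.53 (3.64) in PBS and 2.76 to 5.94 (3.81) in RGLS4326 kidneys. This was 3.57-fold and 3.75-fold over UNT (adjusted p = 4.13e-14 for the latter), and RGLS4326 vs PBS gave 0.07 (SE 0.14, adjusted p = 0.702). Per kilobase of exon, *Il18r1* averaged 14.1 CPM and *Il1rl1* 0.528 CPM in PBS kidneys, although the genes are the closest neighbours of the cluster, whereas in UNT kidneys they averaged 0.329 and 0.146.

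**Figure D3:**
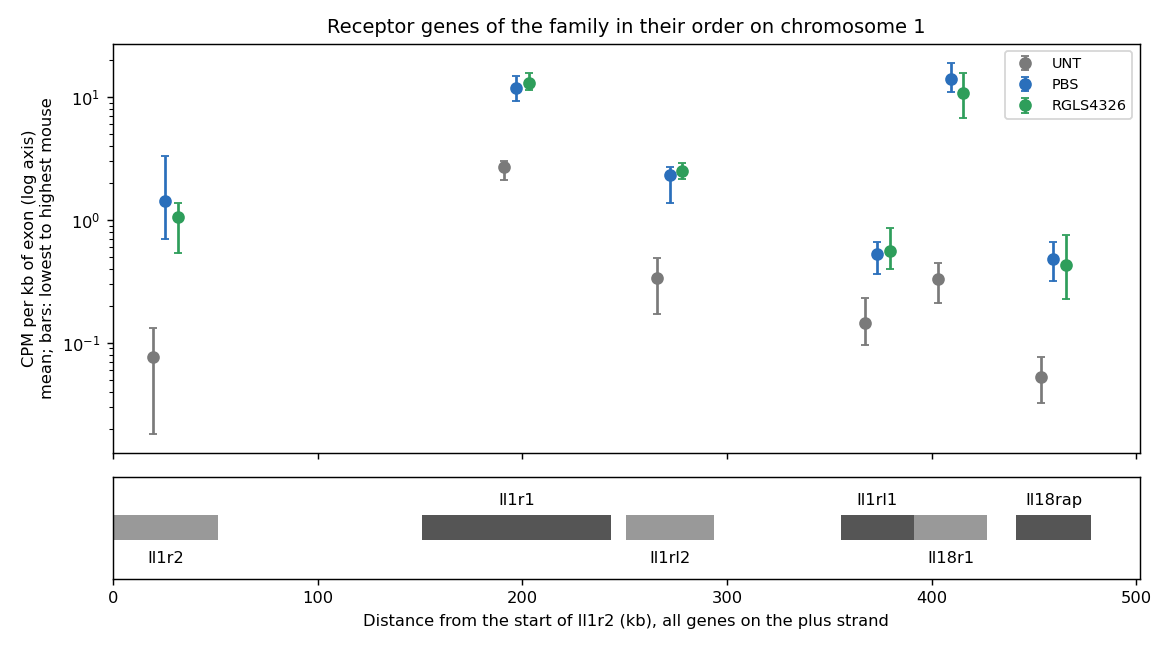
Mean CPM per kilobase of exon (log axis) of the 6 receptor genes of the cluster by group, with bars from the lowest to the highest mouse. Below is a map of the genes in kilobases from the start of *Il1r2*. All 6 were higher in both *Pkd2*-KO groups than in UNT, and *Il18r1* went from 0.329 in UNT to 14.1 in PBS while *Il1rl1* beside it went from 0.146 to 0.528.

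The inhibitor *Il1rn*, which occupies the IL-1 receptor without signalling, had the largest fold over UNT of the 10 members. Its lowest, median and highest CPM were 0.0908, 0.213 and 0.387 in UNT (93 counts in 12 libraries), 6.36, 13.4 and 17.4 in PBS and 4.09, 10.3 and 12.6 in RGLS4326 kidneys. PBS stood 60.6-fold (log2 fold change 5.92, SE 0.22) and RGLS4326 43.8-fold over UNT (5.45, SE 0.22, adjusted p = 4.98e-22). *Il1rn* was lower after RGLS4326 than after PBS, at −0.47 (SE 0.16, adjusted p = 0.027), with all 11 treated mice below the PBS mean but 1 below the lowest PBS mouse. The call was lost without PBS mouse 9 (−0.41, adjusted p = 0.0597), PBS mouse 11 (−0.43, adjusted p = 0.0539) or RGLS4326 mouse 6 (−0.39, adjusted p = 0.0504), and in the fit that included the share of reads outside genes (−0.42, adjusted p = 0.212). Within the numbering series the difference was −0.50, −0.60 and −0.26.

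*Il1r2*, the decoy receptor of IL-1 and a gene known from neutrophils and some macrophages, was nearly absent from UNT kidneys, at 0.0344 to 0.252 CPM (median 0.150, 63 counts in all). It reached 1.33 to 6.30 CPM (2.44) in PBS and 1.03 to 2.604 (2.10) in RGLS4326 kidneys, which was 18.2-fold and 13.3-fold over UNT (adjusted p = 9.04e-16 for the latter). RGLS4326 vs PBS gave −0.46 (SE 0.20, adjusted p = 0.0688). PBS mouse 9 held the 6.30 CPM, and without it the log2 fold change was −0.25, whereas without PBS mouse 7 or 8 it was −0.50 or −0.53 and passed the test (adjusted p = 0.0489 and 0.0307).

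*Il18bp*, which neutralises IL-18, was the one member with no higher level in cystic kidneys. The 12 UNT mice ran from 5.58 to 40.4 CPM with a median of 8.34, the PBS mice from 7.66 to 13.95 with a median of 10.5, and the RGLS4326 mice from 6.97 to 12.9 with a median of 10.1. Means and medians went in opposite directions, since the UNT mean of 14.3 was above the PBS mean of 10.6. RGLS4326 vs UNT gave −0.51 (SE 0.25, adjusted p = 0.0653), and RGLS4326 vs PBS gave −0.07 (SE 0.26, adjusted p = 0.84). Of its exon bases, 2.6% overlap *Numa1* on the opposite strand.

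The balance of antagonist and ligand transcripts was described as a log2 ratio of CPM + 0.1 in each mouse, with no test. The ratio of *Il1rn* to *Il1b* averaged −0.82 ± 0.48 (SD, n = 12) in UNT, 0.84 ± 0.41 (n = 11) in PBS and 0.79 ± 0.61 (n = 11) in RGLS4326 kidneys. Reads of the antagonist thus went from fewer to more than those of *Il1b*. Per kilobase of exon *Il1rn* was below *Il1b* in all groups. The means were 0.0385 and 0.248 CPM in UNT, 2.41 and 3.92 in PBS and 1.74 and 3.08 in RGLS4326 kidneys. The length used is the union of the exons of all annotated transcripts, 5535 bases for *Il1rn* and 1907 for *Il1b*. A single transcript can be shorter, so the order of these genes depends on the length chosen. The ratio of *Il18bp* to *Il18* was 2.77 ± 1.08, 2.0 ± 0.32 and 1.99 ± 0.32 in the same order. Its medians of 2.4, 2.07 and 1.98 lay nearer to each other, since some UNT mice were high (up to 4.69). The ratio of the decoy *Il1r2* to *Il1r1* was −6.17 ± 0.38, −4.82 ± 0.64 and −5.33 ± 0.48, the last being 0.51 below PBS. That is less than the SD of single PBS mice, with PBS mouse 9 at −3.21, and more than that of RGLS4326 mice. With few *Il1r2* reads in UNT kidneys, the PBS minus UNT difference of this ratio, 1.35, became −0.42 when 1 CPM was added instead of 0.1. *Il1rl1* to *Il33* stayed within 0.12 of its UNT mean of −3.91 in all groups, but PBS minus UNT was −0.40 with 1 CPM added.

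**Figure D4:**
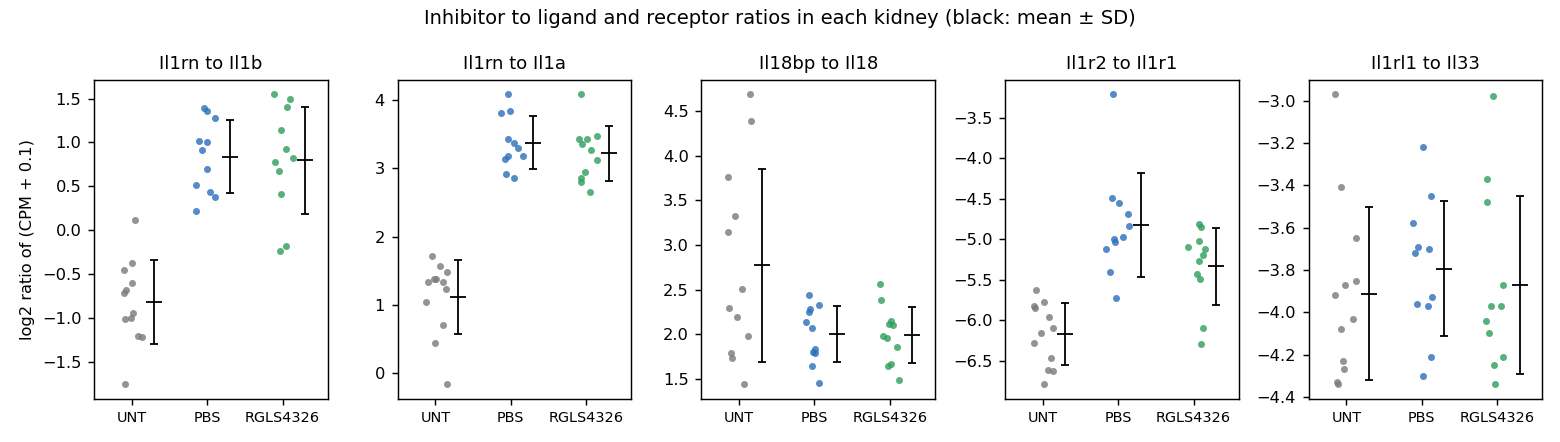
Log2 ratios of CPM + 0.1 in each of the 34 kidneys for 5 pairs of genes, by group. Points are mice and black marks are the mean ± SD. Both *Il1rn* ratios were higher in PBS than in UNT kidneys (differences of 1.66 and 2.25) and nearly level between PBS and RGLS4326 (−0.05 and −0.15). With 1 CPM added the first was 1.03, and 4 of 12 UNT libraries had no read of *Il1a*.

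Ordered per kilobase of exon, *Il33*, *Il18bp* and *Il1r1* led in UNT kidneys (5.68, 4.73 and 2.69 CPM per kilobase), and *Il33*, *Il18r1* and *Il1r1* led in PBS (17.8, 14.1 and 11.9) and, in the order *Il33*, *Il1r1*, *Il18r1*, in RGLS4326 kidneys (19.9, 13.02 and 10.8). The ranges of these leading neighbours overlapped within each group. A gap without overlap followed the third gene in every group, to *Il18* in UNT (1.56), to *Il1b* in PBS (3.92) and to *Il18bp* in RGLS4326 kidneys (3.32). In UNT a further gap lay between *Il18* and *Il18r1* (0.329). All other neighbours in the order overlapped. The order rests on the union of the exons of all annotated transcripts as the length, and can differ for the transcripts in use.

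Other chains of the family receptors did not all follow. *Il18rap*, the partner chain of *Il18r1*, averaged 0.354 CPM in UNT, 3.24 in PBS and 2.88 in RGLS4326 kidneys (RGLS4326 vs PBS −0.16, SE 0.17, adjusted p = 0.456). *Il1rap*, the chain shared by the IL-1 and IL-33 receptors, was higher after RGLS4326, at 22.3 CPM against 18.9 in PBS and 13.4 in UNT (log2 fold change 0.24, SE 0.08, adjusted p = 0.0192), with 11 of 11 treated mice above the PBS mean. *Il1rl2*, the IL-36 receptor, averaged 2.29, 15.8 and 17.2 CPM in the same order of groups (0.12, SE 0.11, adjusted p = 0.422). *Sigirr*, an inhibitory receptor of the family, was lower in both *Pkd2*-KO groups than in UNT, at 38.4 and 38.8 against 87.7 CPM, or −1.18 on the log2 scale (SE 0.06, adjusted p = 3.01e-18) for RGLS4326 vs UNT. Of 6 such genes, *Il1rapl1* and *Il1rapl2* were too low to be tested, as was the ligand gene *Il1f10*.

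Downstream of the receptors, 8 of 18 genes of MyD88 signalling passed the test between RGLS4326 and PBS, with 5 higher and 3 lower (15.3% of all tested genes were higher and 18.5% were lower). The adaptor *Myd88* (−0.28, adjusted p = 0.00501), the kinase *Irak4* (−0.24, adjusted p = 0.0101) and the NF-κB subunit *Rela* (−0.32, adjusted p = 0.00541) were lower, and the IκB kinase *Chuk* was higher (0.42, adjusted p = 0.00924). The median of the list was 0.09. Of 6 tested genes of ligand processing, the inflammasome adaptor *Pycard* was lower (−0.46, adjusted p = 0.00781), while *Casp4* (0.54, adjusted p = 0.0972), *Nlrc4* (0.19, adjusted p = 0.255) and *Nlrp3* (−0.11, adjusted p = 0.6) did not pass. All 6 were higher in RGLS4326 than in UNT kidneys, as were 40.8% of all tested genes.

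Genes that IL-1 is known to induce through NF-κB were higher than in UNT for 14 of 15 tested in both *Pkd2*-KO groups (43.1% of all tested genes for PBS and 40.8% for RGLS4326), with a median log2 fold change of 4.19 for PBS and 4.41 for RGLS4326. Between RGLS4326 and PBS 3 of 15 were lower and none was higher, a share near the 18.5% of all tested genes that were lower. These were the chemokine *Ccl20* (−0.95, SE 0.22, adjusted p = 0.00418), the siderophore-binding protein gene *Lcn2* (−0.80, SE 0.19, adjusted p = 0.005) and the acute-phase gene *Saa3* (−1.76, SE 0.46, adjusted p = 0.00656), and *Csf3* gave −0.53 (SE 0.23, adjusted p = 0.068). The median of the list was −0.07.

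On the IL-18 side, the genes of interferon-gamma (*Ifng*) and of IL-12 (*Il12a*, *Il12b*) and the IL-12 receptor chain *Il12rb2* were too low to be tested. Of 7 tested genes of this axis, all 7 were higher than UNT in both *Pkd2*-KO groups, beside the same 43.1% and 40.8% of all tested genes. The receptor chain *Ifngr2* (−0.20, adjusted p = 0.0244) and the transcription factor *Stat4* (−0.49, adjusted p = 0.0337) were lower after RGLS4326 than after PBS, 2 of 7 beside 18.5% of all tested genes, and *Cxcl9* (−0.49, adjusted p = 0.0693) and *Ifngr1* (−0.15, adjusted p = 0.123) did not pass. Among genes of the type 2 response that IL-33 can drive, *Il4*, *Il5* and *Il13* were too low to be tested. *Gata3* (−0.46, adjusted p = 0.00315) and *Retnla* (−1.29, adjusted p = 0.00602) were lower after RGLS4326 than after PBS, and *Areg* gave −0.62 (adjusted p = 0.0692). *Gata3* is also expressed in collecting duct cells.

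Markers of leukocytes moved with the members, and their counts of lower genes stand beside the 18.5% of all tested genes that were lower after RGLS4326. The summed level of 7 macrophage genes was 98.8 to 167.3 CPM in UNT, 640.4 to 1683 in PBS and 573.8 to 1123 in RGLS4326 kidneys, and 4 of the 7 were lower after RGLS4326, among them *Cd68* (−0.80, adjusted p = 0.00258) and *C1qb* (−0.61, adjusted p = 0.00708). Neutrophil genes summed to 1.63 to 7.76 CPM in UNT, 9.02 to 46.3 in PBS and 11.6 to 23.99 in RGLS4326 kidneys (*Cxcr2* lower, 1 of 6), and T and NK cell genes to 4.27 to 7.97, 12.6 to 40.8 and 9.32 to 20.9 CPM (5 of 9 lower, among them *Cd3d*). None of these genes was at 0 in every library, and *Adgre1* and *Ly6g* were not analysed here. The 5 mast cell markers, of interest because mast cells carry the receptor encoded by *Il1rl1*, were too low to be tested and summed to at most 2.51 CPM in any kidney. Proximal tubule genes, which identify the tissue as kidney, summed to 12030 to 15820 CPM in UNT, 1513 to 4282 in PBS and 2570 to 4667 in RGLS4326 kidneys, and 4 of 7 were higher after RGLS4326, beside 15.3% of all tested genes. The part of these markers in the members' differences between groups was not tested.

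Members were also set against the sums of the macrophage, neutrophil, T and NK cell, fibroblast, injured tubule and proximal tubule lists. The comparison was within the groups, over the 22 *Pkd2*-KO mice, after each group's mean was subtracted. This was done after the data had been seen, for 60 pairs of a member and a list, of which 12 passed a two-sided permutation test after adjustment over the 60. *Il1r2* followed the macrophage sum (Pearson's r = 0.76, permutation p = 8e-05, adjusted p = 0.0024, Spearman's rho = 0.71, permutation p = 0.0005, adjusted p = 0.0066), and r was 0.64 without the 2 mice farthest from the median of the sum and 0.78 when the numbering series was also subtracted. It passed with the neutrophil sum (r = 0.75, adjusted permutation p = 0.0024) and the T and NK cell sum (r = 0.64, adjusted permutation p = 0.0206) as well, the latter not by rank (rho = 0.40, adjusted permutation p = 0.228). *Il1rn* followed the macrophage sum (r = 0.66, permutation p = 0.00088, adjusted p = 0.0066, rho = 0.60, permutation p = 0.00475, adjusted p = 0.0335), with r = 0.38 without the 2 farthest mice and 0.75 with the series subtracted, so its relation leaned on those 2 mice. It went against the proximal tubule sum (r = −0.56, adjusted permutation p = 0.0249), as did *Il1a* (r = −0.72, adjusted permutation p = 0.00626). *Il1a* followed the neutrophil sum (r = 0.77, permutation p = 0.00014, adjusted p = 0.0024, rho = 0.78, permutation p = 0.0001, adjusted p = 0.003, 0.71 and 0.78 in the same checks) and the macrophage sum (r = 0.61, adjusted permutation p = 0.0268). *Il1rl1* passed with the neutrophil sum (r = 0.53, adjusted permutation p = 0.0371), though not by rank (rho = 0.53, adjusted permutation p = 0.0828). *Il18bp* followed the T and NK cell sum (r = 0.79, permutation p = 2e-05, adjusted p = 0.0012, rho = 0.77, permutation p = 8e-05, adjusted p = 0.003, 0.83 and 0.81), and also passed with the macrophage (r = 0.73, adjusted permutation p = 0.0024) and neutrophil sums (r = 0.67, adjusted permutation p = 0.00626).

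*Il18r1* passed with none of the 6 lists. Its r was 0.31 with the macrophage sum (permutation p = 0.157, adjusted p = 0.295, rho = 0.37, permutation p = 0.102, adjusted p = 0.267, 0.39 without the 2 farthest mice and 0.38 with the series subtracted). With the proximal tubule sum it was −0.48 (permutation p = 0.0197, adjusted p = 0.0721, rho = −0.52, permutation p = 0.0203, adjusted p = 0.093, −0.36 and −0.38). *Il1b* passed with none either. Whether the correlations of different members differ from each other was not tested.

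**Figure D5:**
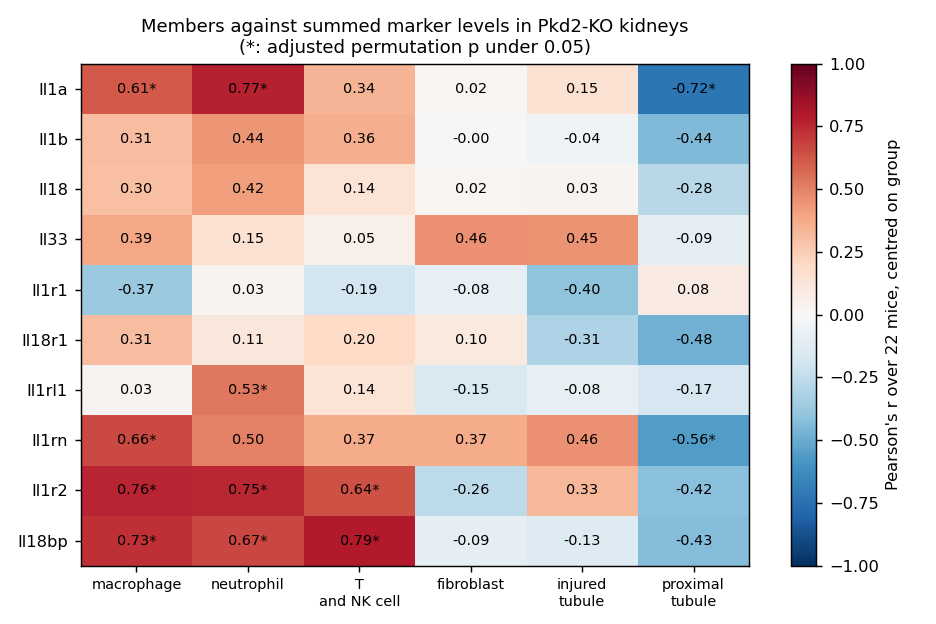
Pearson's r between each member and the summed level of 6 marker lists over 22 *Pkd2*-KO mice, both as log2(CPM + 1) with the group mean subtracted. Red is positive, blue is negative, and an asterisk marks the 12 pairs with an adjusted permutation p under 0.05, which include *Il1r2* with macrophage markers (0.76) and none with *Il18r1*.

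The tested genes whose levels were most like those of *Il18r1* over the same 22 mice, with group means subtracted, were *Zfp553* (r = 0.86, rho = 0.81), *Ints12* (0.83, 0.89), *Edaradd* (0.82, 0.78), *Gper1* (0.81, 0.83) and *Cgn* (0.80, 0.82). With the numbering series subtracted too, their r was 0.75 to 0.85. *Cgn* encodes a tight junction protein of epithelia, and *Edaradd* the adaptor of the ectodysplasin receptor. For *Il1b* they were *Cd83* (0.80, 0.88), *Neurl3* (0.78, 0.77), *Ptpn7* (0.75, 0.72), *Fam219b* (0.75, 0.73) and *Bin1* (0.74, 0.83), of which *Cd83* encodes a protein of activated antigen-presenting cells. These were picked as the highest of all tested genes and are given without a test.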

How the data were processed

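The authors deposited raw read counts per gene, 1 table per mouse, made with FastQC 0.11.2, Trim Galore, STAR, SAMtools 1.1, Picard 1.119 and HTSeq 0.6.1 on GRCm38. The annotation and the strand setting were not given in the sources used here. Libraries were stranded mRNA libraries with 17603122 to 54981992 reads in genes. Counts were scaled by TMM and filtered with filterByExpr (15644 genes left), and all 34 libraries were fitted together with 3 groups and no covariate by the quasi-likelihood test of edgeR 4.0.16 (R 4.3.3), two-sided, with Benjamini-Hochberg adjustment over all tested genes and a threshold of 0.05. CPM were computed from the TMM-scaled counts. The fit was tested on simulated data. DESeq2 1.42.0 and limma 3.58.1 were alternatives. Correlations used permutation tests with 100000 resamples within groups (scipy 1.17.1). The PBS and UNT groups served in 2 comparisons each. Positions, exon lengths and 3′UTRs came from GENCODE M21, miRNA and promoter sequences from RefSeq, and all 10 members matched in both. An exon length was the union of the exons of all annotated transcripts of a gene. In each other family and pathway list, the up to 4 genes with the smallest p between RGLS4326 and PBS are named. Of the marker lists only some genes are named, and the leukocyte markers named all passed that test. A result of the type 2 response list is not reported here. The members and lists were chosen with earlier results of these data known.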

Additional observations from a re-analysis of the deposited data

How the results depend on the processing

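Of the 10 members, 2 were called between RGLS4326 and PBS, and that number was 0 when the fit included the share of reads outside genes and in numbering series 1, 2 and 3 alone, and 1 to 3 when each of the 22 *Pkd2*-KO mice was left out in turn (1 without PBS mouse 9, PBS mouse 11 or RGLS4326 mouse 6). The genes called in all went from 5280 to 89 with that share, 54 in series 1, 4065 in series 2 and 0 in series 3, each with 3 or 4 mice a group, and 4023 to 6209 when a mouse was left out. At an unadjusted p under 0.05, 7262 genes passed with all mice. Including the share of not uniquely aligned reads instead left 7316 genes called for RGLS4326 vs UNT and 7338 for PBS vs UNT. The log2 fold change of *Il18r1* between RGLS4326 and PBS was −0.76 to −0.19 over 35 alternatives, 31 of them called, and that of *Il1rn* −0.54 to −0.37, 28 of them called. Other members changed sign without being called. In series 2 alone *Il18* was 0.30, *Il1b* 0.17, *Il1a* 0.23 and *Il33* −0.12, *Il18bp* was 0.004 in series 3, and *Il1rl1* was −0.002 in series 1, −0.13 with the share of reads outside genes and −0.011 to 0.11 when a mouse was left out (lowest without RGLS4326 mouse 7). A pseudocount of 1 CPM moved the PBS minus UNT log2 ratio of *Il1rn* to *Il1b* to 1.03, of *Il1r2* to *Il1r1* to −0.42 and of *Il1rl1* to *Il33* to −0.40, against 1.35 and 0.12 for the last pairs at 0.1 CPM. With so few reads of *Il1r2* in UNT kidneys the sign of its ratio depended on the pseudocount. The cause of the other changes was not tested.

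Mouse numbers are shared between groups but mark different mice. Same-numbered PBS and RGLS4326 mice deviated together (r above 0.1) in 5 of 11 pairs, with a median r of 0.05. The count was 3 of 11 for RGLS4326 and UNT mice and 2 of 11 for PBS and UNT mice. Such counts cannot exclude that same-numbered mice are linked, and the main fit treated them as unpaired. With the number as a replicate block, 2 members and 5102 genes were called between RGLS4326 and PBS, 9 members and 12157 genes for RGLS4326 vs UNT and 12773 genes for PBS vs UNT. Leaving out a mouse of the UNT group was not run.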

Other observations

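The spread of *Il18bp* among UNT mice was looked at after its values were seen. The 5 highest UNT mice (numbers 3, 9, 12, 6 and 2, with 40.4, 33.5, 17.2, 16.5 and 14.6 CPM) were among the 6 in which the Y-linked gene *Ddx3y* was under 1 CPM, and mouse 7, with *Ddx3y* at 0, had 7.51 CPM of *Il18bp*. The 6 UNT mice with *Ddx3y* above 1 CPM had 5.58 to 8.84 CPM of *Il18bp*. The labels give no sex, so the groups were not split by it. Over the 12 UNT mice the genes most like *Il18bp* were *Adamts8* (r = 0.97), *Slc17a2* (0.96) and *Npr2* (0.95), picked as the highest of all tested genes and given without a test.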
